A study of Rattus norvegicus with 6 samples.

Results

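Prostaglandins are short-lived lipids that act close to the cells that make them, through receptors on the surface of their target cells. The 8 genes described here are the 6 prostaglandin receptor genes Ptger1, Ptger2, Ptger3, Ptger4, Ptgfr and Ptgir, and the 2 transporter genes Slco2a1 and Abcc4. They were taken by symbol from the probe sets (the groups of probes that report a transcript) whose array annotation gives exactly 1 gene, and the probe set of highest mean over the arrays stood for each gene. All 8 were found among the 14506 genes so measured.

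The tissue was the endosalpinx, which is the mucosa that lines the oviduct, taken from Sprague-Dawley adults and hybridised at 1 array per rat. The 3 mated females were housed from 2200 h on the night of pro-estrus with fertile males, had sperm or a plug in the vagina 30 min later, and were killed 3 h after mating. The 3 unmated females were kept alone and were killed at 0130 h of estrus. All 6 animals were killed before the time at which ovulation was estimated to follow. Both groups were thus sampled at the same cycle stage, and the company of a male cannot be told apart from mating itself. The comparison asks whether mating changes the transcripts of the lining before ovulation, here those through which it could respond to prostaglandins or move them.

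Prostaglandin E2, prostaglandin F2α and prostacyclin have receptors of their own, which differ in the G protein they use. Ptger2, Ptger4 and Ptgir encode receptors that raise cyclic AMP, Ptger3 encodes one that mainly lowers it, and the products of Ptger1 and Ptgfr act mainly through calcium. In the oviduct, prostaglandins are known for acting on the contraction of the muscle layer, and semen carries prostaglandins as well. Slco2a1 encodes the prostaglandin transporter that takes these lipids into cells, where they are broken down, and Abcc4 encodes an export pump for prostaglandins and for cyclic AMP.

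None of the 8 genes passed the test for a difference between mated and unmated rats: the 6 receptors and the 2 transporters all had groups that overlapped. They differed from each other in the spread between animals. Ptger2 varied by more than 2-fold between the 3 mated rats, more than nearly all other genes on the array, while Ptger1, Ptger3, Ptger4 and Ptgfr varied little. Of the genes that varied little, only Ptger4 had a signal well clear of background. Values are the authors' log2 signals, on which 1 unit is a doubling. Differences are mated minus unmated, with limma's 95% confidence interval.

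Epithelial markers gave bright signals in both groups of this mucosa. The epithelial keratin gene Krt8 lay between 12.92 and 13.11 in mated rats and between 12.83 and 13.00 in unmated rats, and the smooth muscle actin gene Acta2 between 9.79 and 9.89 in mated rats and between 9.77 and 9.91 in unmated rats, so markers of muscle were found in this lining too. The 1256 odorant and pheromone receptor genes, which belong mainly to the sensory cells of the nose, gave a measure of background. The 95th percentile of their means was 7.13, and a gene whose mean lies at or below it is said to lie within the odorant receptor range. In 11 lists of cell type markers, 39 of 54 measured genes lay above that range: 5 of 5 for epithelium, 5 of 6 for ciliated cells, 3 of 4 for secretory cells, 6 of 7 for fibroblasts, 7 of 8 for smooth muscle, 4 of 4 for endothelium, 4 of 5 for macrophages, 2 of 2 for mesothelium, 2 of 4 for adipocytes, 1 of 3 for platelets and 0 of 6 for neutrophils. Of all genes, 71.1% lay above that range, so the total over the lists is near that share and says nothing particular of the tissue. The listed secretory marker Ovgp1 was not among the measured genes.

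Of the 6 receptor genes, Ptger2 and Ptger4 lay well above the odorant receptor range, Ptger1 and Ptger3 just above it, and Ptgfr and Ptgir within it. Both transporter genes lay above it. For the genes near or within that range, signals this close to background understate a difference. The level of one probe set says nothing of the level of another, so the 8 genes are not ranked against each other.

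Ptger2 had log2 signals of 9.24, 8.08 and 9.03 in the 3 mated rats, against 8.44, 9.13 and 9.34 in the 3 unmated rats. Mated replicate 2 and unmated replicate 1 were low, the other 4 arrays were high, and the groups overlapped. The mean was 8.78 ± 0.62 in mated rats and 8.97 ± 0.47 in unmated rats (SD, n = 3 rats each), and the difference was -0.19 (95% confidence interval -0.93 to 0.56). The product of this gene is the prostaglandin E2 receptor that, in mice, is needed for normal expansion of the cumulus around the egg. The annotation gives Ptger2 a pair of probe sets, whose values were identical on all 6 arrays, so the second adds no independent measurement. Such identical values were held by 319 of the 29214 probe sets of the table (1.09%).

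Ptger4, which encodes the other receptor that raises cyclic AMP on binding prostaglandin E2, was the steadier of that pair. It read 10.64, 10.55 and 10.61 in mated rats, against 10.52, 10.63 and 10.43 in unmated rats. The mated values lay close together, inside the range of the unmated ones apart from the 10.64 of mated replicate 1. The difference was 0.07 (-0.10 to 0.25).

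Ptger1 read 7.49, 7.44 and 7.52 in mated rats, against 7.49, 7.40 and 7.36 in unmated rats, with a difference of 0.07 (-0.09 to 0.23). Ptger3 read 7.38, 7.16 and 7.31 in mated rats, against 7.38, 7.36 and 7.40 in unmated rats, with a difference of -0.10 (-0.27 to 0.08). In both genes 1 mated and 1 unmated animal had the same value, so the groups met or overlapped. Mated replicate 2, low for Ptger2, also had the lowest Ptger3 value.

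Ptgfr, the receptor gene for prostaglandin F2α, which makes smooth muscle contract, read 5.87, 5.88 and 5.96 in mated rats, against 6.01, 5.91 and 6.06 in unmated rats. Its groups overlapped only through mated replicate 3 and unmated replicate 2, and the difference was -0.09 (-0.26 to 0.08). Ptgir, the prostacyclin receptor gene, read 6.82, 7.14 and 7.02 in mated rats, against 6.95, 6.88 and 7.04 in unmated rats. The mated animals held both its lowest and its highest value, and the difference was 0.04 (-0.18 to 0.26).

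**Figure D1:**
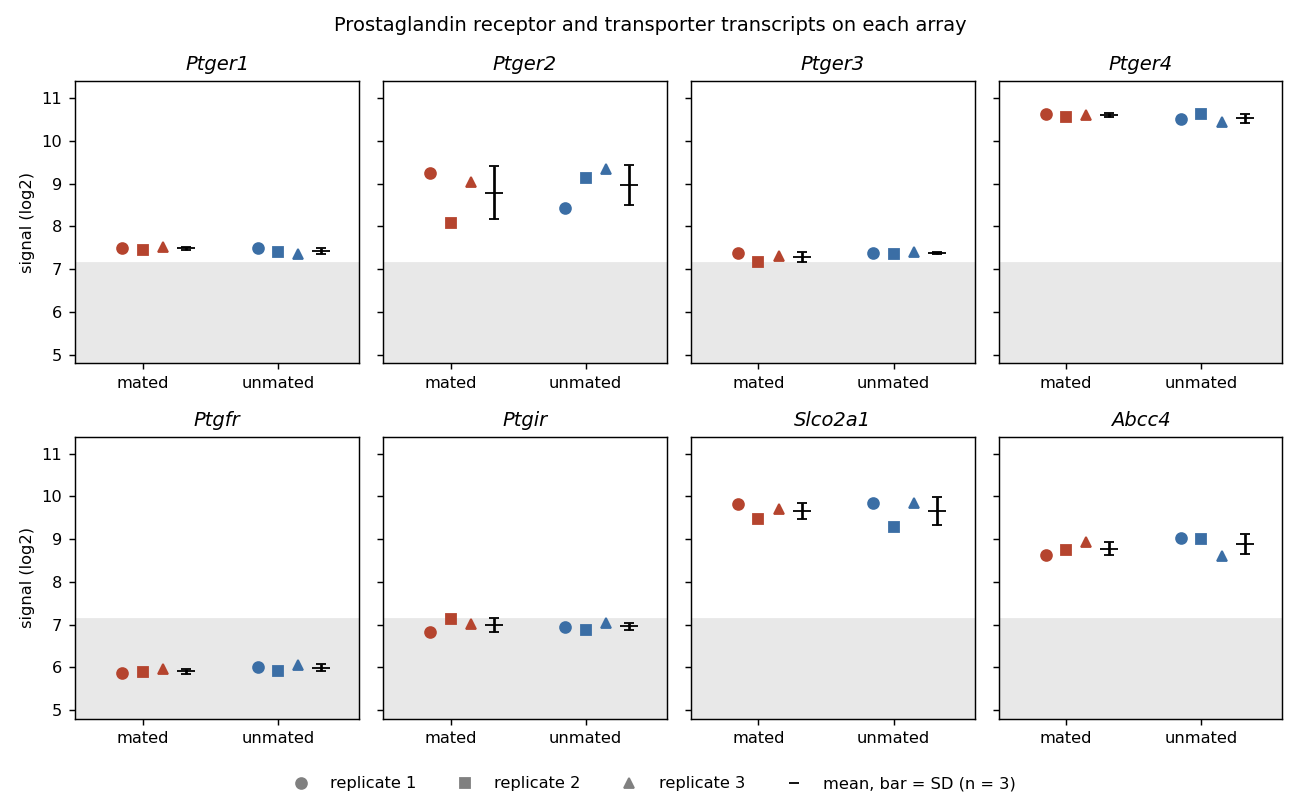
Log2 signal of each of the 8 genes on the 6 arrays (circle, square and triangle for replicates 1, 2 and 3), mated rats in red on the left and unmated rats in blue on the right, with mean and SD of the 3 animals in black; grey marks the odorant receptor range, up to 7.13. Ptger2 scatters from 8.08 to 9.24 in mated rats and from 8.44 to 9.34 in unmated rats, and Ptgfr and Ptgir lie within the grey zone.

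Slco2a1 read 9.82, 9.46 and 9.71 in mated rats, against 9.84, 9.28 and 9.85 in unmated rats. Here mated replicate 2 and unmated replicate 2 were low, the second of which was among the high animals for Ptger2. The mean was 9.66 ± 0.18 in mated rats and 9.66 ± 0.33 in unmated rats (SD, n = 3 rats each), and the difference was 0.01 (-0.37 to 0.39).

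Abcc4, measured by its brightest probe set, read 8.64, 8.74 and 8.94 in mated rats, against 9.02, 9.01 and 8.61 in unmated rats. The 2 highest values and the lowest were all from unmated animals. The mean was 8.77 ± 0.15 in mated rats and 8.88 ± 0.23 in unmated rats (SD, n = 3 rats each), and the difference was -0.11 (-0.41 to 0.19). This gene has 3 probe sets, and they disagreed in direction. The brightest and the middle one had nearly equal means over all arrays, 8.83 and 8.81, so brightness hardly sets them apart. The dimmest of them followed the brightest closely (r = 0.995 across the 6 arrays) and differed by -0.10 (-0.37 to 0.18). The one of middle brightness read 8.71, 8.89 and 8.92 in mated rats, against 8.83, 8.79 and 8.71 in unmated rats, differed by 0.06 (-0.13 to 0.26), and followed the brightest less well (r = 0.559).

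In limma's test 0 of the 8 genes passed at an adjusted p under 0.05, as did 0 of all 14506 genes (0% called). At an unadjusted p under 0.05 there were again 0 of 8, against 663 of 14506 genes (4.57%). Unadjusted p-values of the 8 genes by limma ran from 0.245 for Ptgfr and Ptger3 to 0.969 for Slco2a1. None of the 8 had groups that did not overlap, against 8.47% of all genes. With 8 genes and backgrounds this low, a count of 0 is near the background and says nothing particular of these genes.

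Set side by side, 3 of the 6 receptor genes were higher in mated rats and 3 were lower, with a median log2 difference of -0.03, while of the 2 transporter genes 1 was higher and 1 lower, with a median of -0.05. The median over all genes was 0.01, and 53.2% of all genes were higher in mated rats, while after median centring the median was -0.0067 and 46.6% were higher. The sign of both list medians turned in some alternatives. The receptor median was 0.027 without mated replicate 2 and 0.012 without unmated replicate 3, and the transporter median was 0.009 without mated replicate 2 and 0.031 without unmated replicate 1. The direction of Slco2a1 turned to -0.01 when each array was centred on its median; the other 7 kept theirs under both other scalings.

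The confidence intervals bound how large a difference in signal these arrays could have missed. For 7 of the 8 genes the interval lay inside a change of 1.5-fold in either direction, as it did for 95.7% of all genes. Ptger2 was the exception, with an interval from 0.524-fold to 1.47-fold of the unmated level. In these intervals limma draws the spread of each gene towards that common to all genes. For genes of wide spread, such as Ptger2 and Slco2a1, they are narrower than the gene's own spread would give. The count of 7 depends on this, and intervals from each gene's own spread alone were not computed. The narrowest interval was that of Ptger1, from 0.938-fold to 1.17-fold, at a signal just above the odorant receptor range. For Ptger4, at a bright signal, it ran from 0.932-fold to 1.19-fold. For Ptgfr and Ptgir, within the odorant receptor range, and Ptger1 and Ptger3, just above it, the interval bounds the signal and not the change in transcript.

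**Figure D2:**
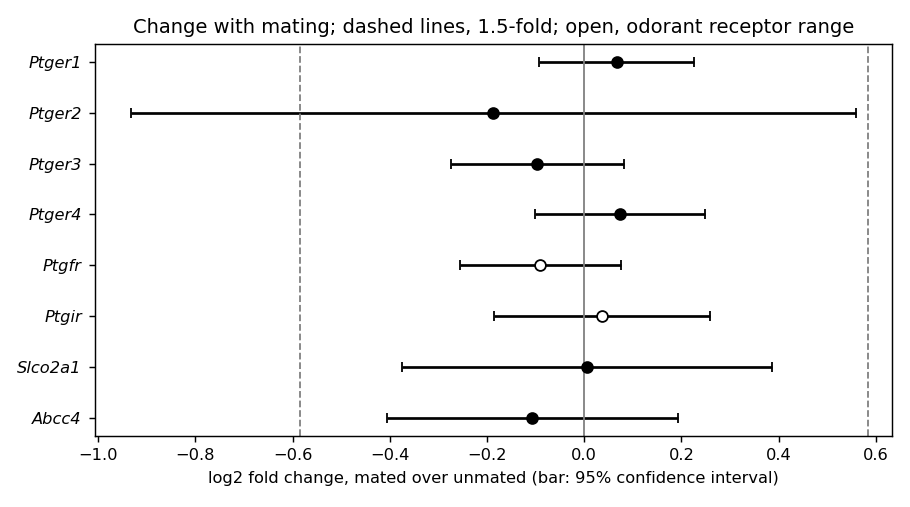
Log2 fold change of each gene, mated over unmated, with limma's 95% confidence interval (bars); dashed lines mark a 1.5-fold change, and open circles the 2 genes within the odorant receptor range. All 8 intervals include 0, and only that of Ptger2, from -0.93 to 0.56, reaches past a 1.5-fold change.

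The spread between animals of the same group separated the 8 genes. The SD within groups was 0.55 log2 units for Ptger2, 0.27 for Slco2a1 and 0.20 for Abcc4, against a median of 0.11 over all genes. Ptger2 lay at the 99.7th percentile of all genes, with 46 genes at or above its SD, and at the 99.7th percentile of the 2596 genes whose mean lies within 0.5 log2 units of its own. Its highest and lowest animals differed 2.24-fold among mated rats and 1.87-fold among unmated rats. Slco2a1 lay at the 95th percentile and Abcc4 at percentile 87.5. The Abcc4 value is that of its brightest probe set, with SDs of 0.15 in mated and 0.23 in unmated rats. Its dimmest probe set had SDs of 0.12 and 0.21, but that of middle brightness had only 0.11 and 0.06. The spread of Abcc4 thus depends on the probe set. The other receptor genes ran from percentile 12.1 for Ptger1 to percentile 62.7 for Ptgir. Dim signals are compressed, so for Ptgfr, Ptger1 and Ptger3 a small SD describes the signal and does not show a steady transcript. Left out 1 at a time, as tried after seeing the data, no array took Ptger2 below an SD of 0.39 (98.6th percentile, without mated replicate 2). Slco2a1 was down to an SD of 0.15 (percentile 72.3) without unmated replicate 2, and Abcc4 to 0.125 (percentile 62.3) without unmated replicate 3. Each animal had 1 array, so technical and biological spread cannot be told apart.

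**Figure D3:**
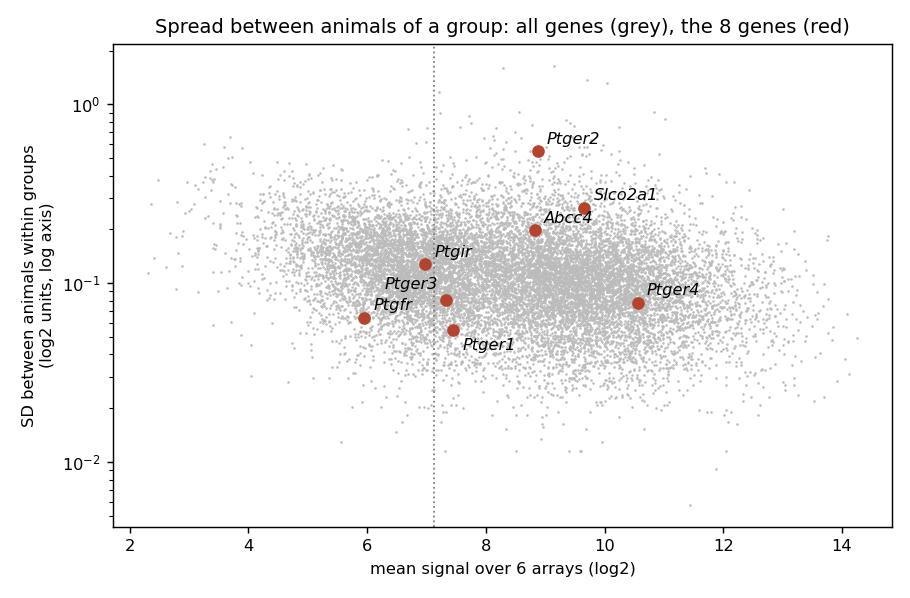
SD between animals within groups (vertical, log axis) against mean log2 signal over the 6 arrays (horizontal) for all 14506 genes in grey and the 8 genes in red; the dotted line is the upper limit of the odorant receptor range. Ptger2, at an SD of 0.55, stands at the upper edge of the cloud, while Ptger1, Ptger3, Ptger4 and Ptgfr lie in its lower part.

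The promoter windows of the 2 genes that varied most between animals, Ptger2 and Slco2a1, are shown here. They are RefSeq windows of build GRCr8, from 250 bases before to 50 bases after the start of the gene, on the plus strand at chr15:20696796-20697095 for Ptger2 and at chr8:112467489-112467788 for Slco2a1. Capitals mark the motifs found.
Ptger2: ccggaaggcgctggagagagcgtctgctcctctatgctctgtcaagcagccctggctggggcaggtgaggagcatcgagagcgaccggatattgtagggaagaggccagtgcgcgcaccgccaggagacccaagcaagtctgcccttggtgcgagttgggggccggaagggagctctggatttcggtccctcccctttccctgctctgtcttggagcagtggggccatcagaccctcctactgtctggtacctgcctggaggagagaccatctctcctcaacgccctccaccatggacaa
Slco2a1: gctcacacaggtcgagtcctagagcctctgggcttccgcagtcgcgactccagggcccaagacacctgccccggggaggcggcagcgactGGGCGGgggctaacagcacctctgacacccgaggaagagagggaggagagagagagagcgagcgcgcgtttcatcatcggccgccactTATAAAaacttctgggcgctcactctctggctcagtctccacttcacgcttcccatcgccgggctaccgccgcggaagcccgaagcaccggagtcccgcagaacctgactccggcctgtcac
Searched on both strands were the TATA box TATAAA, the GC box GGGCGG, and half-sites of the elements for cyclic AMP (TGACG), estrogen (AGGTCA) and progesterone or glucocorticoids (TGTTCT). The Slco2a1 window held TATAAA at its position 179 (-72 from the start of the gene) and GGGCGG at position 91 (-160). The Ptger2 window held none of the 5. Over all 33469 promoter windows, 14.2% held TATAAA, 33.1% GGGCGG, 21.2% TGACG, 16.2% AGGTCA and 20.7% TGTTCT. Of the 8 genes here, 1 held TATAAA and 5 held GGGCGG, and 0 held any of the 3 half-sites. A match describes letters and is no binding site, and the arrays give no reading of these windows.

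Ptger2 and Slco2a1 correlated at 0.232 over the 6 arrays. Among mated rats both were lowest in replicate 2, but the lowest unmated animal was not the same. The cell type markers did not follow either gene closely. The correlation of the mean of a marker list with Ptger2 over the 6 arrays ran from -0.611 to 0.441 over the 11 lists, and with Slco2a1 from -0.66 to 0.631. Among the 28 pairs of the 8 genes, correlations ran from -0.81 for Ptger4 and Ptgfr to 0.751 for Ptger2 and Ptger3. The arrays share their normalization, and 6 points give a wide range of correlations, so these are descriptions without a test.

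The 2 genes most like Ptger2 over the 6 arrays, among 993 genes above the odorant receptor range with an SD of at least 0.2, were Ctrb1 and Nufip1. Ctrb1, which encodes the digestive protease precursor chymotrypsinogen B, had r = 0.953. It read 10.62, 8.53 and 10.88 in mated rats, against 8.57, 10.50 and 11.14 in unmated rats. The same 2 animals that were low for Ptger2 were low for Ctrb1, by a wider margin. Nufip1, which encodes an RNA-binding partner protein, had r = 0.95, and its lowest values, 8.48 in mated replicate 2 and 8.60 in unmated replicate 1, came from the same animals. Neither differed between the groups at an unadjusted p under 0.05 by limma (p = 0.939 and p = 0.459), and 5 of the 993 genes had a correlation above 0.9 with Ptger2. Over the 4 arrays other than mated replicate 2 and unmated replicate 1 the correlation was 0.409 for Ctrb1 and 0.6 for Nufip1, so the likeness rests on those 2 animals.

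Abcc4 followed the means of the fibroblast and smooth muscle markers. Its brightest probe set had r = 0.918 with the mean of 7 fibroblast markers and r = 0.931 with the mean of 8 smooth muscle markers over the 6 arrays. With each array left out in turn these correlations stayed at or above 0.89 and 0.896. Single markers, computed after seeing the data, varied: 6 of the 7 fibroblast markers and 7 of the 8 smooth muscle markers had a positive r, up to 0.929 for Lum and 0.963 for Acta2, but Vim had -0.289 and Smtn -0.115 (Lum and Smtn were named after their values were seen). Acta2 moved little, from 9.77 to 9.91 over the 6 arrays (SD within groups 0.07, percentile 20.4 of all genes). Lum, with a mean of 5.00 over all arrays, lay within the odorant receptor range. The fibroblast markers Dpt, Pdgfra and Dcn, at 7.22, 7.23 and 7.45, lay just above it, while Col1a1, Col3a1 and Vim were brighter. Of the other lists, the mean of the 2 mesothelial markers had r = 0.779, that of the 6 neutrophil markers, all within the odorant receptor range, r = -0.747, and the remaining 7 lists ran from -0.337 to 0.267. The fibroblast mean was 7.91, 8.03 and 8.06 in mated rats, against 8.29, 8.19 and 7.94 in unmated rats. The smooth muscle mean was 8.04, 8.18 and 8.25 in mated rats, against 8.23, 8.32 and 8.02 in unmated rats. As for Abcc4, mated replicate 1 and unmated replicate 3 were the lowest arrays of their groups for both marker means. By limma, none of the 8 smooth muscle markers had an unadjusted p under 0.05, and 1 of the 7 fibroblast markers did, against 4.57% of all genes. It was the matrix protein gene Dpt, just above the odorant receptor range, with a difference of -0.46 (-0.69 to -0.22). The probe set of middle brightness followed them less, with r = 0.396 for fibroblasts and 0.669 for smooth muscle. Whether the share of stroma moves Abcc4 was not tested, and in a bulk sample fewer cells of a type and less RNA per cell cannot be told apart.

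The 2 genes most like Abcc4, among 994, were Lgr5 (r = 0.986), which encodes a receptor for R-spondins found on stem cells of several epithelia, and Car14 (r = 0.972), which encodes a carbonic anhydrase. Lgr5 read 8.16, 8.20 and 8.55 in mated rats, against 8.70, 8.59 and 8.07 in unmated rats. Car14 read 9.62, 9.58 and 10.35 in mated rats, against 10.42, 10.58 and 9.26 in unmated rats. Both were thus low in mated replicates 1 and 2 and in unmated replicate 3. In all, 9 of the 994 genes had a correlation above 0.9 with Abcc4, and these too are descriptions without a test.

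**Figure D4:**
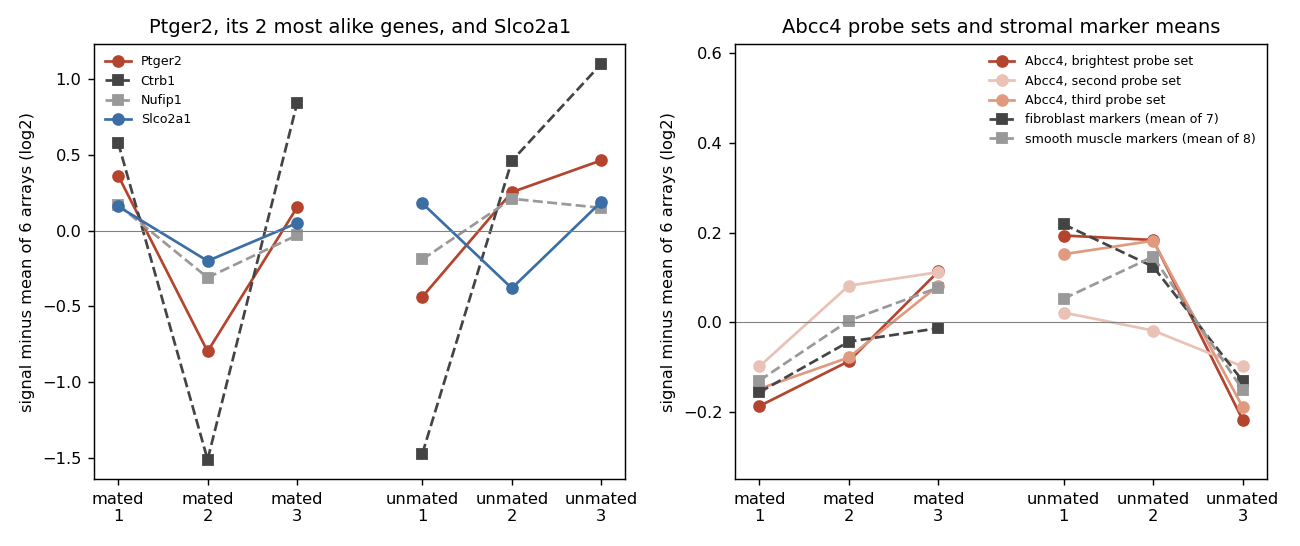
Log2 signal minus the mean of the 6 arrays, by array, mated rats left of unmated rats; lines join the values of one gene or marker mean and imply no order of animals. On the left, Ptger2 and Ctrb1 are both low in mated replicate 2 and unmated replicate 1, while Slco2a1 is low in mated and unmated replicate 2; on the right, the brightest and dimmest Abcc4 probe sets move with the fibroblast and smooth muscle means, and that of middle brightness less so.

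The rest of the prostanoid pathway was counted in 6 lists, of which 66 genes were measured. These lists also covered relatives of Slco2a1 and Abcc4, receptor partners and genes that respond to cyclic AMP. None of the 66 passed at an adjusted p under 0.05, and 7 of 66 had an unadjusted p under 0.05 by limma (10.6%, against 4.57% of all genes). Of these 7, 1 was a prostanoid receptor gene, 2 were relatives of Slco2a1 and Abcc4, and 4 were genes that respond to cyclic AMP. The synthesis and breakdown lists had 0 in the deposited values. Of the remaining receptors, Ptgdr2, a prostaglandin D2 receptor of immune cells, read 7.45, 7.14 and 7.37 in mated rats, against 7.84, 7.64 and 7.41 in unmated rats, a difference of -0.31 (-0.60 to -0.02). Its groups overlapped at mated replicate 1 and unmated replicate 3, and its mean of 7.475 over all arrays lay just above the odorant receptor range. The thromboxane receptor gene Tbxa2r differed by -0.09 (-0.50 to 0.33), and Ptgdr was not analysed here.

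Of the 11 synthesis genes, 7 were higher and 4 lower in mated rats in the deposited values, 6 and 5 under both other scalings. None of the 11 had an unadjusted p under 0.05 in the deposited values and 1 had under each other scaling. Ptgs2, the inducible cyclooxygenase, read 10.97, 10.57 and 11.14 in mated rats, against 10.57, 10.65 and 10.70 in unmated rats, with mated replicate 2 at the level of the lowest unmated animal. The prostaglandin D synthase gene Ptgds had the smallest p of the list, with a difference of -0.16 (-0.33 to 0.01). Of the 6 breakdown genes, 5 were lower and 1 higher, with none at an unadjusted p under 0.05. Hpgd, which encodes the dehydrogenase that inactivates prostaglandins once Slco2a1 has taken them up, had a mean of 6.46 ± 0.04 in mated rats and 6.84 ± 0.50 in unmated rats (SD, n = 3 rats each), within the odorant receptor range. Its difference of -0.38 (-0.88 to 0.11) rested on unmated replicate 1, which read 7.42, against 6.60 and 6.51 in the other two unmated rats.

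Among 14 genes of the families of Slco2a1 and Abcc4, 2 had an unadjusted p under 0.05, against 4.57% of all genes, and 4 had groups that did not overlap, against 8.47% of all genes. Slco4c1, an organic anion carrier, read 8.16, 8.29 and 7.63 in mated rats, against 7.34, 7.46 and 7.54 in unmated rats, a difference of 0.58 (0.21 to 0.95; unadjusted p = 0.00696, adjusted p = 0.984 by limma). All 3 mated values lay above the unmated ones, 2 of them by a wide margin. Slco2b1 differed by -0.20 (-0.35 to -0.05) within the odorant receptor range, again with groups that did not overlap. The other two carriers with groups apart, Slco5a1 at 0.16 (-0.01 to 0.32) and Abcc1 at -0.10 (-0.26 to 0.07), were named after their values were seen, and Slco5a1 lay within that range too. The list of G proteins, adenylyl cyclases, phospholipases, arrestins and receptor kinases that receptors of this kind use, with the Ptgfr partner gene Ptgfrn, had 0 of 17 at an unadjusted p under 0.05, with 8 higher, 8 lower and 1 of equal means in the deposited values, 9 and 8 after a repeated quantile normalization, and 7 and 10 after median centring. The kinase gene Grk2 had the smallest p of them, with a difference of 0.10 (-0.08 to 0.28).

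Genes that respond to cyclic AMP stand downstream of Ptger2, Ptger4 and Ptgir, though many other signals drive them. Of 17 measured, the deposited values had 14 higher, 2 lower and 1 of equal means, mated against unmated, a repeated quantile normalization gave 15 and 2, and median centring gave 14 and 3. Over all genes, 53.2% were higher in the deposited values and 46.6% after median centring. Of the 17, 4 had an unadjusted p under 0.05 in the deposited values, against 4.57% of all genes, and 3 after median centring. The 4 were the cyclic nucleotide phosphodiesterase gene Pde10a, at 0.50 (0.10 to 0.90), Rgs2, a regulator of G protein signalling, at 0.41 (0.06 to 0.76), the orphan nuclear receptor gene Nr4a3, at 0.31 (0.05 to 0.57), and the AP-1 subunit gene Fos, at 0.17 (0.01 to 0.34). Their adjusted p was 0.984 by limma. Nr4a3, with a mean of 7.37 over all arrays, lay just above the odorant receptor range. Rgs2 read 9.71, 9.53 and 9.54 in mated rats, against 9.55, 8.94 and 9.05 in unmated rats. Unmated replicate 1 stood with the mated animals for Rgs2, and was 1 of the 2 animals low for Ptger2.

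**Figure D5:**
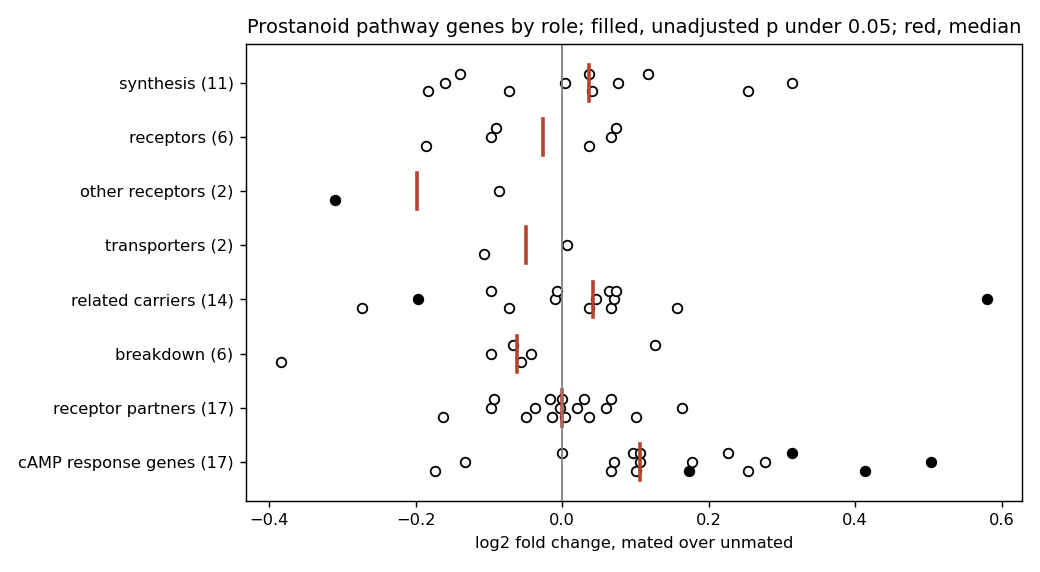
Log2 fold change, mated over unmated, of each measured gene of the prostanoid pathway and of the lists related to it, by role (1 circle a gene, number of genes in brackets). Filled circles have an unadjusted p under 0.05 by limma, and red bars mark the median of the list. The receptor and transporter genes lie between -0.19 and 0.07 with no filled circle, and Slco4c1, at 0.58, lies furthest to the right.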

How the data were processed

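The data were Affymetrix arrays of 3 mated and 3 unmated rats, without pooling. Per the labels, 0.3 µg of total RNA was made into a biotin-labelled sense target. The submitters' processing notes name RMA (background correction, quantile normalization and probe set summary) and Affymetrix Expression Console; versions, build, batches and scan dates are not given in the sources used here. The deposited values are log2 signals, taken as they stand; the log2 scale was read from their range and the method. RMA hides a shift of most transcripts 1 way and compresses dim signals. Array medians lay between 7.89 and 7.94; depth has no meaning for arrays, and their number limits precision.

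Of 29214 probe sets, 15310 had exactly 1 symbol in the array annotation, which gave 14506 genes (brightest probe set each). The 2 groups were compared in limma 3.58.1 (R 4.3.3; lmFit and eBayes, two-sided, Benjamini-Hochberg over all genes, threshold 0.05), tested on simulated data. An exact permutation test of 3 against 3 cannot go below p = 0.1 and was not used. Genes and lists were chosen with earlier results of these data known. Named were the 8 genes, from each pathway list the member of smallest p and those at an unadjusted p under 0.05, a few enzymes and receptors, and the 2 genes of highest Pearson correlation with each gene above background. Promoters came from RefSeq (GRCr8). The 16 alternatives are those of the closing section. For the listed gene Akr1c18 the RefSeq symbol Akr1c3 was used.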

Additional observations from a re-analysis of the deposited data

How the results depend on the processing

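Over 16 alternatives, 0 of the 8 genes passed at an adjusted p under 0.05 and 0 had an unadjusted p under 0.05 by limma; the lowest adjusted p of any of them was 0.555. Of 123 recomputed differences 115 kept their sign. Those that turned were Ptger2, at 0.17 without mated replicate 2; Ptgir, at -0.037 without mated replicate 2 and at -0.0017 without unmated replicate 2; and Slco2a1, at -0.0099 with array weights and at -0.01 after median centring, at -0.07 without mated replicate 1, at -0.02 without mated replicate 3 and at -0.18 without unmated replicate 2. Leaving out each animal in turn, Ptger2 ranged from -0.45 to 0.17, Slco2a1 from -0.18 to 0.11, Abcc4 from -0.24 to -0.04 and Ptgir from -0.04 to 0.12. The cause was not tested. With the replicate number as a block 0 of the 8 genes passed, and 672 genes had an unadjusted p under 0.05, against 663 without it. Deviations of same-numbered animals correlated at 0.0141, -0.046 and 0.0608, and mated replicate 1 correlated best with unmated replicate 2 (0.103). With 3 animals a group, these values cannot show whether same-numbered animals were handled together. The count of 663 of 14506 genes was 1403 without mated replicate 1, 1207 with array weights and 432 without unmated replicate 2. It was 1372 of the 29214 probe sets and 262 of 7253 genes without the dimmest 50%. The receptor median turned to 0.027 without mated replicate 2, 0.012 without unmated replicate 3 and 0.037 without the dimmest 25%, and the transporter median to 0.009 without mated replicate 2 and 0.031 without unmated replicate 1. Ptgfr was not tested where the dimmest 25% were left out, nor Ptger1, Ptger3 and Ptgir where the dimmest 50% were. With 3 animals a group, differences inside the intervals given above could have been missed. These intervals are no limit of detection for the adjusted test. It called 0 of all 14506 genes, whose differences ran from -1.69 to 1.08. Signals near the odorant receptor range limit what Ptgfr, Ptgir, Ptger1 and Ptger3 can show.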

Other observations

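The genes most like the remaining 4 genes above the odorant receptor range, over the 6 arrays, were taken from 993 or 994 genes and are given as descriptions. For Ptger1 they were Dusp7 (r = 0.995), a phosphatase of MAP kinases, and Sv2c (r = 0.989), a synaptic vesicle glycoprotein gene. Sv2c read 9.20, 8.76 and 9.52 in mated rats, against 9.12, 8.41 and 8.25 in unmated rats, a wider swing than that of Ptger1 itself. For Ptger3 they were Aph1b (r = 0.961), a subunit of gamma-secretase, and Lrriq4 (r = 0.933). Both were lower in mated rats at an unadjusted p under 0.05 by limma, with a difference of -0.57 for each, and neither passed at an adjusted p under 0.05. Aph1b read 8.40, 7.46 and 7.96 in mated rats, against 8.41, 8.36 and 8.76 in unmated rats, with mated replicate 2 lowest as for Ptger2 and Ptger3. For Ptger4 they were Mkks (r = 0.939), a chaperonin-like protein of the Bardet-Biedl group, and Mgat3 (r = 0.917), a glycosyltransferase of N-glycans. For Slco2a1 they were Bpifc (r = 0.913) and Hgfac (r = 0.907), the activator of hepatocyte growth factor.

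Adipoq, the adipocyte hormone gene, lay between 11.68 and 11.94 in mated rats and between 11.69 and 11.93 in unmated rats, while the other adipocyte markers, Plin1, Lep and Fabp4, had means of 7.15, 7.12 and 5.98 over all arrays. Of the 54 cell type markers measured, 6 had an unadjusted p under 0.05 by limma, namely Dpt, Elane, Msx2, S100a8, Spag6 and Tie1, against 4.57% of all genes. The neutrophil markers Elane and S100a8, the secretory marker Msx2 and the ciliated cell marker Spag6 among them were within the odorant receptor range on average.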
